A study of Drosophila melanogaster with 12 samples.

Results

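The interaction of dppil4 knockdown with time of day was measured in fly heads as the knockdown effect at ZT16 minus the knockdown effect at ZT8, gene by gene, over all 12 of the 12 RNA-seq libraries of the series. Control flies carried the driver tim(UAS)-Gal4 together with UAS-dicer2, each in 1 copy. Knockdown flies carried the same 2 elements and UAS-dppil4 RNAi, so that dicer2 and Gal4 were present in every group and the hairpin was present only in knockdown. Flies were held in 12 h of light and 12 h of dark and taken on day 4 at ZT8, which is 8 h after lights on and in the light, or at ZT16, which is 16 h after lights on and in the dark. Each of the 4 groups, control ZT8, knockdown ZT8, control ZT16 and knockdown ZT16, held 3 libraries of whole heads with the brain. The tim driver is active in clock cells, and a head holds many cells without it. The labels do not say whether replicates came from separate flies, so p-values measure the spread between these libraries, which may be technical.

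In the fly clock, Clk and cyc activate per and tim in the day, and the PER and TIM proteins return to the nucleus in the night and block the activity of the CLK and CYC proteins. A second loop of vri, Pdp1 and cwo acts on Clk and on shared targets, and cry encodes a blue light receptor that resets the clock. CG5808 encodes dPPIL4, a nuclear protein with a cyclophilin-type peptidyl-prolyl isomerase domain. An interaction asks which genes answered the knockdown differently by day and by night, and it is also the difference between the time effects of the genotypes.

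Total counts were 36885481 to 37676778 per library at ZT8 and 25844821 to 31848667 at ZT16, so depth and time of day cannot be told apart, while control and knockdown overlapped in depth at each time. rRNA genes took 2.58% to 9.73% of the counts. This share was at least 8.94% in all 3 knockdown ZT16 libraries and at most 8.05% in every other library, so it was highest in 1 group of the contrast. Levels are CPM, counts scaled to a library of 1000000 with TMM factors. Differences are log2 values ± SE from 1 edgeR quasi-likelihood fit. The SE is derived, as the size of the log2 value divided by the square root of its F statistic. P-values were adjusted by the Benjamini-Hochberg method over 10717 genes and called under 0.05. Control ZT16 replicate 1 stood apart, with midgut enzyme genes summing to 2655 CPM (68.6 to 266 CPM in the other 11 libraries) and ovary and eggshell genes to 892 CPM (2.43 to 18.3 CPM). Markers of photoreceptors, neurons and glia were present in every library, and genes of testis and male accessory gland summed to at most 0.784 CPM. Replicates differed by 5.48 to 173 times the sampling noise (chi-square per degree of freedom), so no 2 libraries were duplicates. Control ZT8 replicate 1 differed from replicates 2 and 3 by 122 and 112 times the sampling noise, and these 2 from each other by 5.48 times. Knockdown ZT8 replicate 3 differed from replicates 1 and 2 by 158 and 173 times, and these 2 from each other by 19.2 times.

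The targeted gene CG5808 (chromosome 3R, 24814903 to 24817007 on dm6) showed no interaction that passed the test. Its level was 4.91, 4.81 and 4.93 CPM for control and 4.34, 2.91 and 4.49 for knockdown at ZT8, then 6.17, 5.86 and 5.16 for control and 4.46, 4.08 and 3.71 for knockdown at ZT16. At ZT8 and at ZT16 the highest knockdown library was still lower than the lowest control library. The knockdown effect was -0.32 ± 0.15 at ZT8 and -0.49 ± 0.16 at ZT16 and passed the test at ZT16 only, and the interaction was -0.17 ± 0.22 (adjusted p = 0.697). Exons of CG5808 overlap those of CG34150 and asRNA:CR46096 on the opposite strand, and whether strand was used in counting is not given in the sources used here. In whole heads, fewer cells of a type and less RNA per cell cannot be told apart.

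None of the 8 core clock genes passed the test for the interaction. The repressor gene per (chromosome X, 2685580 to 2692780) was at 145, 151 and 138 CPM for control and 126, 118 and 119 for knockdown at ZT8, then 289, 306 and 301 for control and 235, 227 and 239.6 for knockdown at ZT16. It was lower in every knockdown library than in every control library of the same time, and its interaction was -0.09 ± 0.065 (adjusted p = 0.451). Exons of per overlap those of dyw on the opposite strand. Its partner tim had an interaction of 0.12 ± 0.072 (adjusted p = 0.342), with a time effect of 1.15 ± 0.052 in control and 1.28 ± 0.052 in knockdown. Exons of tim overlap those of lncRNA:CR46495 on the opposite strand and a snoRNA gene on the same strand. The activator gene Clk had -0.21 ± 0.14 (adjusted p = 0.4), and its partner cyc had 0.03 ± 0.096 (adjusted p = 0.907).

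In the second loop the smallest adjusted p belonged to vri, a repressor of Clk transcription. It was at 264, 296 and 297 CPM for control and 287, 309 and 326 for knockdown at ZT8, then 419, 440.4 and 464 for control and 399, 383 and 397 for knockdown at ZT16. All knockdown ZT16 libraries lay below all control ZT16 libraries, the ZT8 groups overlapped, and the interaction was -0.27 ± 0.088 (adjusted p = 0.1). Pdp1, an activator of Clk, had an interaction of 0.04 ± 0.097 (adjusted p = 0.85), the repressor gene cwo had 0.13 ± 0.071 (adjusted p = 0.331) and cry had 0.04 ± 0.12 (adjusted p = 0.888). Of 18 genes for clock protein kinases, phosphatases and F-box proteins, 0 passed the test, with a median interaction of 0.03.

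Across all genes, 448 of 10717 passed the test for the interaction (4.18%), and 2338 had an unadjusted p under 0.05. With the replicate number as a block 137 were called, 76 positive and 61 negative. A block within each time gave 170, with 64 positive and 106 negative, so negative calls were then the majority. Of the 448, the interaction was positive for 286 (2.67% of those tested) and negative for 162 (1.51%). A positive value means that knockdown heads stood higher relative to control at ZT16 than at ZT8. In 310 of the 448 genes the size was under 0.50 on the log2 scale, and in 44 it was at least 1. The median was 0.38 among the genes called positive, -0.51 among those called negative and -0.03 among all genes tested. Called or not, 4719 of the 10717 genes had a positive estimate. On deposited TPM in place of counts, 26 genes were called, 10 positive and 16 negative.

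The 2 knockdown effects and the 2 time effects are pieces of the same contrast and are given only to describe its shape. At ZT8, knockdown was higher than control in 947 genes (8.84% of those tested) and lower in 724 (6.76%). At ZT16 it was higher in 1204 (11.2%) and lower in 1175 (11%). The split by direction depended on the scaling. On TPM it was 577 higher and 1755 lower at ZT8, and 627 higher and 1108 lower at ZT16. Upper quartile factors in place of TMM gave 832 higher and 898 lower at ZT8, and 944 higher and 1477 lower at ZT16. Among the 286 genes with a positive interaction, 181 were called higher in knockdown at ZT16 with no call at ZT8. A further 62 were called lower at ZT8 with no call at ZT16, and 29 were called lower at ZT8 and higher at ZT16. Among the 162 with a negative interaction, 76 were called lower at ZT16 only, 57 were called higher at ZT8 only, and 17 were called higher at ZT8 and lower at ZT16.

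With time, control heads were higher at ZT16 in 1281 genes (12%) and lower in 1261 (11.8%). Knockdown heads were higher in 1268 (11.8%) and lower in 1220 (11.4%). On TPM, control heads were higher in 546 and lower in 2286, and knockdown heads higher in 663 and lower in 1301. Of the 286 genes with a positive interaction, 115 were called lower at ZT16 in control with no call in knockdown, 115 were called higher at ZT16 in knockdown with no call in control, and 31 were called both ways. Of the 162 with a negative interaction, 69 were called lower at ZT16 in knockdown only, 51 were called higher at ZT16 in control only, and 20 were called both ways.

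**Figure D1:**
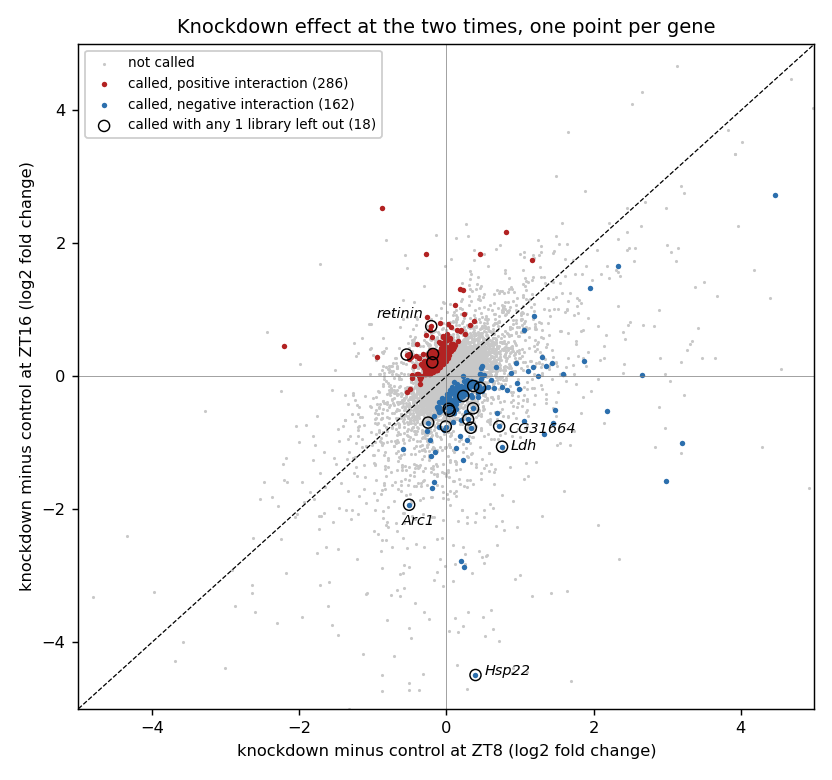
Knockdown effect at ZT8 (x axis) against knockdown effect at ZT16 (y axis), both as log2 fold changes, with 1 point per gene. Grey points were not called, red points had a positive interaction (286), blue points a negative one (162), and rings mark the 18 genes called with any 1 library left out. The interaction is the height above or below the dashed line of equal effects, and 59 genes, 1 of them called, lie outside the axes. Hsp22 lies farthest below the line among the ringed genes.

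The number of calls rested on single libraries. Without control ZT16 replicate 1 it was 320, with 141 positive (1.3% of 10877 tested), 179 negative (1.65%) and 2.94% in all, and 249 of the 448 genes kept their call and sign, 134 positive and 115 negative. Without control ZT8 replicate 1 it was 1107. It was 22 without control ZT8 replicate 2, 27 without control ZT8 replicate 3, 19 without knockdown ZT16 replicate 1, and leaving out control ZT16 replicate 3 gave 24. Without knockdown ZT8 replicate 1 it was 116, and without knockdown ZT16 replicate 3 it was 73. The other 4 fits gave 257 without knockdown ZT8 replicate 2, 306 without knockdown ZT8 replicate 3, 292 without knockdown ZT16 replicate 2 and 269 without control ZT16 replicate 2. Negative calls outnumbered positive ones without control ZT8 replicate 2 (15 and 7), control ZT8 replicate 3 (18 and 9), control ZT16 replicate 1, control ZT16 replicate 3 (14 and 10) and knockdown ZT16 replicate 1 (14 and 5). All 448 genes kept the sign of the interaction in all 12 of these fits. Each fit reuses most of the libraries that chose these genes, so a kept sign is no separate support. The call was kept in all 12 fits by 18 genes, 4 positive and 14 negative. These 18 genes are described first. The 7 genes CG4928, Ttd14, Lst, CG7675, bma, Chchd2 and dia were chosen among the 18 after their values were seen.

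**Figure D2:**
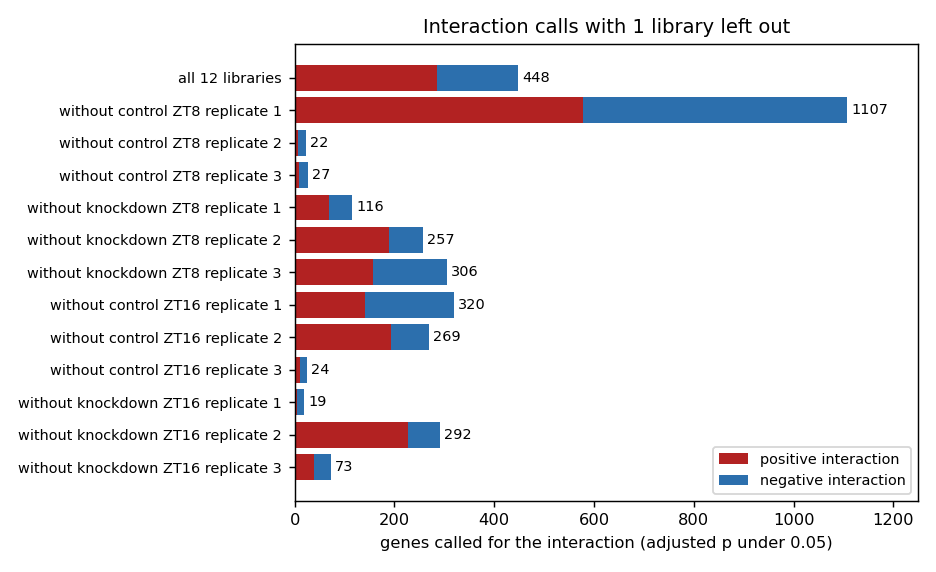
Genes called for the interaction (x axis, adjusted p under 0.05) with all 12 libraries and with each library left out in turn (y axis). Red is the number with a positive and blue with a negative interaction, and the total stands at the end of each bar. Totals run from 19 to 1107, against 448 with all libraries.

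Hsp22, a small heat shock protein of the mitochondrial matrix, had the largest interaction of the 18 genes. Its level was 7.37, 9.37 and 9.74 CPM for control and 8.33, 11.4 and 15.1 for knockdown at ZT8, then 101, 132 and 116 for control and 4.90, 5.22 and 5.35 for knockdown at ZT16 (chromosome 3L, 9372931 to 9374964). The 3 control ZT16 libraries were far above the other 9, which all lay at or below 15.1 CPM. In control, Hsp22 rose from ZT8 to ZT16 by 3.72 ± 0.20. In knockdown it fell by 1.17 on the log2 scale over the same interval, and the knockdown effect at ZT16 was -4.49 ± 0.22. The interaction was -4.89 ± 0.29 (adjusted p = 9.08e-05), and its highest adjusted p with 1 library left out was 0.002. Exons of Hsp22 overlap those of CG4456 on the same strand, so the authors' counting could divide reads between them.

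Other small heat shock genes did not pass the test. The list held 12 genes, of which 11 were tested and 1 was called (9.09% negative, against 1.51% of all genes). Of the 11, 3 had a positive estimate, beside 4719 of all 10717 genes, and the list median was -0.64. Hsp26, a cytosolic member, was at 32.5, 7.43 and 6.80 CPM in control ZT16 and 5.43, 5.40 and 5.12 CPM in knockdown ZT16, with replicate 1 far above replicates 2 and 3 in control (interaction -2.60 ± 0.80, adjusted p = 0.104, and 0.0359 without that library). Without that library 3 of the 11 genes were called negative, where 1.65% of all genes were. Hsp23, a cytosolic member as well, had an interaction of -0.22 ± 0.18 (adjusted p = 0.516).

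Ldh, lactate dehydrogenase, turned from higher to lower in knockdown between the times. Its level was 10.9, 9.04 and 8.72 CPM for control and 15.6, 14.73 and 18.03 for knockdown at ZT8, then 30.8, 36.6 and 28.9 for control and 14.99, 15.6 and 15.6 for knockdown at ZT16 (chromosome 3L, 6259105 to 6262694). The groups did not overlap at either time. The knockdown effect was 0.76 ± 0.11 at ZT8 and -1.06 ± 0.11 at ZT16, and the interaction was -1.81 ± 0.15 (adjusted p = 4.19e-04). In control Ldh rose by 1.75 ± 0.11 from ZT8 to ZT16, and in knockdown the change was -0.07 ± 0.11 and did not pass the test. The other 14 of 15 tested genes for glycolysis, lactate and glycerol phosphate enzymes did not pass (6.67% called negative, against 1.51% of all genes). A positive estimate was found for 11 of the 15, beside 4719 of all 10717 genes (median 0.03). PyK, pyruvate kinase, the enzyme just before Ldh, had 0.01 ± 0.14 (adjusted p = 0.978).

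Arc1, a capsid-forming gene of neurons that is induced by activity, was lower in knockdown at both times and more so at ZT16. Its level was 300.1, 333 and 329.6 CPM for control and 212, 228 and 238 for knockdown at ZT8, then 389, 405 and 447 for control and 96.0, 103 and 126 for knockdown at ZT16 (chromosome 2R, 14357927 to 14360297). No group overlapped another. In control Arc1 rose at ZT16 (0.36 ± 0.093), and in knockdown it fell (-1.06 ± 0.095). The interaction was -1.42 ± 0.13 (adjusted p = 8.71e-04, at most 0.0108 with 1 library left out). Of the 13 genes on the list of activity-regulated genes, Arc1 was the only one called (7.69% negative, against 1.51% of all genes). Its paralog Arc2 had an interaction of -0.63 ± 0.17 (adjusted p = 0.0599, and 0.0251 without control ZT16 replicate 1), Hr38, a nuclear receptor induced by activity, had -0.30 ± 0.24 (adjusted p = 0.511), and the early response gene sr had -0.32 ± 0.21 (adjusted p = 0.391).

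The genes bnl, Lst and dia act in signalling or on actin. bnl, the FGF ligand that guides tracheal growth, was at 8.70, 8.44 and 8.64 CPM for control and 10.1, 12.5 and 9.86 for knockdown at ZT8, then 14.04, 15.5 and 16.02 for control and 8.40, 9.15 and 9.09 for knockdown at ZT16 (chromosome 3R, 19794073 to 19836817). Knockdown was above control in every library at ZT8 and below it in every library at ZT16, and the interaction was -1.10 ± 0.13 (adjusted p = 0.00623). Lst encodes limostatin, a peptide hormone that restrains insulin release. It was at 87.2, 76.0 and 79.6 CPM for control and 87.4, 107 and 103 for knockdown at ZT8, then 90.4, 80.0 and 95.3 for control and 56.6, 60.2 and 52.9 for knockdown at ZT16 (chromosome 2R, 16574579 to 16576586). Knockdown was below control in every library at ZT16, and above it at ZT8 by as little as 87.4 against 87.2 CPM, and the interaction was -0.94 ± 0.13 (adjusted p = 0.00747). The formin gene dia, which nucleates actin filaments, had its highest level in control ZT16, at 91.9, 97.3 and 98.4 CPM, against 60.6, 57.4 and 59.6 CPM in knockdown (interaction -0.45 ± 0.065, adjusted p = 0.0114).

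The protein of Alr is, like that of Hsp22, found in mitochondria. Alr, a sulfhydryl oxidase of the intermembrane space, was at 14.3, 13.1 and 13.98 CPM for control and 13.9, 13.1 and 14.1 for knockdown at ZT8, then 18.4, 19.2 and 21.7 for control and 11.7, 11.7 and 11.8 for knockdown at ZT16 (chromosome X, 19748314 to 19750167). Control ZT16 stood above the other groups, the ZT8 groups overlapped, and the interaction was -0.75 ± 0.097 (adjusted p = 0.00747). CG6512, related to the AFG3L2 subunit of the inner membrane protease, was at 117, 116 and 108 CPM for control and 135, 129 and 136 for knockdown at ZT8, then 137, 154 and 144 for control and 117, 117 and 121 for knockdown at ZT16 (chromosome 3L, 17238613 to 17242128). Knockdown libraries all exceeded control at ZT8, and all were below it at ZT16, with an interaction of -0.52 ± 0.070 (adjusted p = 0.00747). Chchd2, a protein of the intermembrane space, was at 149, 156 and 166 CPM in control ZT16 and 114, 114 and 108 CPM in knockdown ZT16, and its groups overlapped at ZT8 (interaction -0.52 ± 0.075, adjusted p = 0.0114). Exons of Alr overlap those of parvin on the same strand. None of 33 complex I genes and none of 36 genes of complexes II to V passed the test for the interaction, with medians of -0.07 and -0.08, and the first median was positive (0.01) on TPM.

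In the eye and lens, retinin had a positive interaction. This gene encodes a protein of the corneal lens and was at 804, 699.8 and 678 CPM for control and 672, 619.8 and 599.5 for knockdown at ZT8, then 647, 682 and 646 for control and 1223, 1149.5 and 961 for knockdown at ZT16 (chromosome 3L, 16331933 to 16332789). The 3 knockdown ZT16 libraries stood above all 9 others. Knockdown was higher at ZT16 by 0.76 ± 0.090, the difference at ZT8 was -0.21 ± 0.090 and did not pass the test, and the interaction was 0.96 ± 0.13 (adjusted p = 0.00747, at most 0.045 with 1 library left out). Ttd14, which takes part in the trafficking of the TRP channel of photoreceptors, was at 314, 331 and 321 CPM for control and 455, 462 and 409.5 CPM for knockdown at ZT8. Its groups did not overlap at ZT16 either, at 465, 523 and 499 CPM for control and 429.8, 429 and 461 CPM for knockdown, and the interaction was -0.63 ± 0.084 (adjusted p = 0.00747). Exons of Ttd14 overlap those of PIG-O on the opposite strand.

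Of 27 tested photoreceptor and phototransduction genes, only Galphaq, the G protein alpha subunit of phototransduction, was called (interaction 0.36 ± 0.091, adjusted p = 0.0491, and 0.0878 without control ZT16 replicate 1). This share of 3.70% positive was near the 2.67% of all genes. In this list 21 of 27 estimates were positive, beside 4719 of all 10717 genes, with a median of 0.13. The summed level of the list was 81052 to 84673 CPM at ZT8 and 73174 to 81131 CPM at ZT16 for control, and 69712 to 70650.0 CPM at ZT8 and 67159.6 to 71264 CPM at ZT16 for knockdown. Both knockdown groups lay below both control groups.

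The remaining genes of the 18 were of mixed kind. CG31664 (chromosome 2L, 1824172 to 1826500) was at 20.2, 15.7 and 14.95 CPM for control and 26.7, 27.4 and 29.5 for knockdown at ZT8, then 12.4, 11.6 and 12.0 for control and 5.99, 7.48 and 7.87 for knockdown at ZT16. Knockdown was above control in every library at ZT8 and below it in every library at ZT16 (interaction -1.47 ± 0.17, adjusted p = 0.00479). CG8112, a sterol O-acyltransferase, followed the same order, at 68.4, 62.9 and 59.3 CPM for control and 72.4, 83.2 and 89.4 for knockdown at ZT8, then 53.5, 51.6 and 57.7 for control and 37.2, 39.8 and 39.6 for knockdown at ZT16 (interaction -0.84 ± 0.11, adjusted p = 0.00747). Its exons overlap those of Cks85A on the opposite strand. CG17211 took the reverse order, at 64.3, 60.0 and 57.2 CPM for control and 45.0, 42.3 and 37.4 for knockdown at ZT8, then 31.1, 35.5 and 35.2 for control and 46.5, 40.1 and 41.3 for knockdown at ZT16 (interaction 0.87 ± 0.12, adjusted p = 0.00756). OtopLc, an otopetrin-like proton channel, was also lower in all knockdown libraries at ZT8 and higher in all at ZT16 (interaction 0.52 ± 0.069, adjusted p = 0.00747). Interactions were -0.56 ± 0.073 for CG4928, -0.51 ± 0.071 for CG7675 and 0.40 ± 0.056 for bma, with adjusted p of 0.00747, 0.00836 and 0.00836. Exons of bma overlap those of CG6685 on the opposite strand. On TPM, the adjusted p of CG4928, OtopLc, Ttd14, CG6512, bma, Chchd2 and dia rose to between 0.0539 and 0.0977, and the calls of these 7 genes ended.

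**Figure D3:**
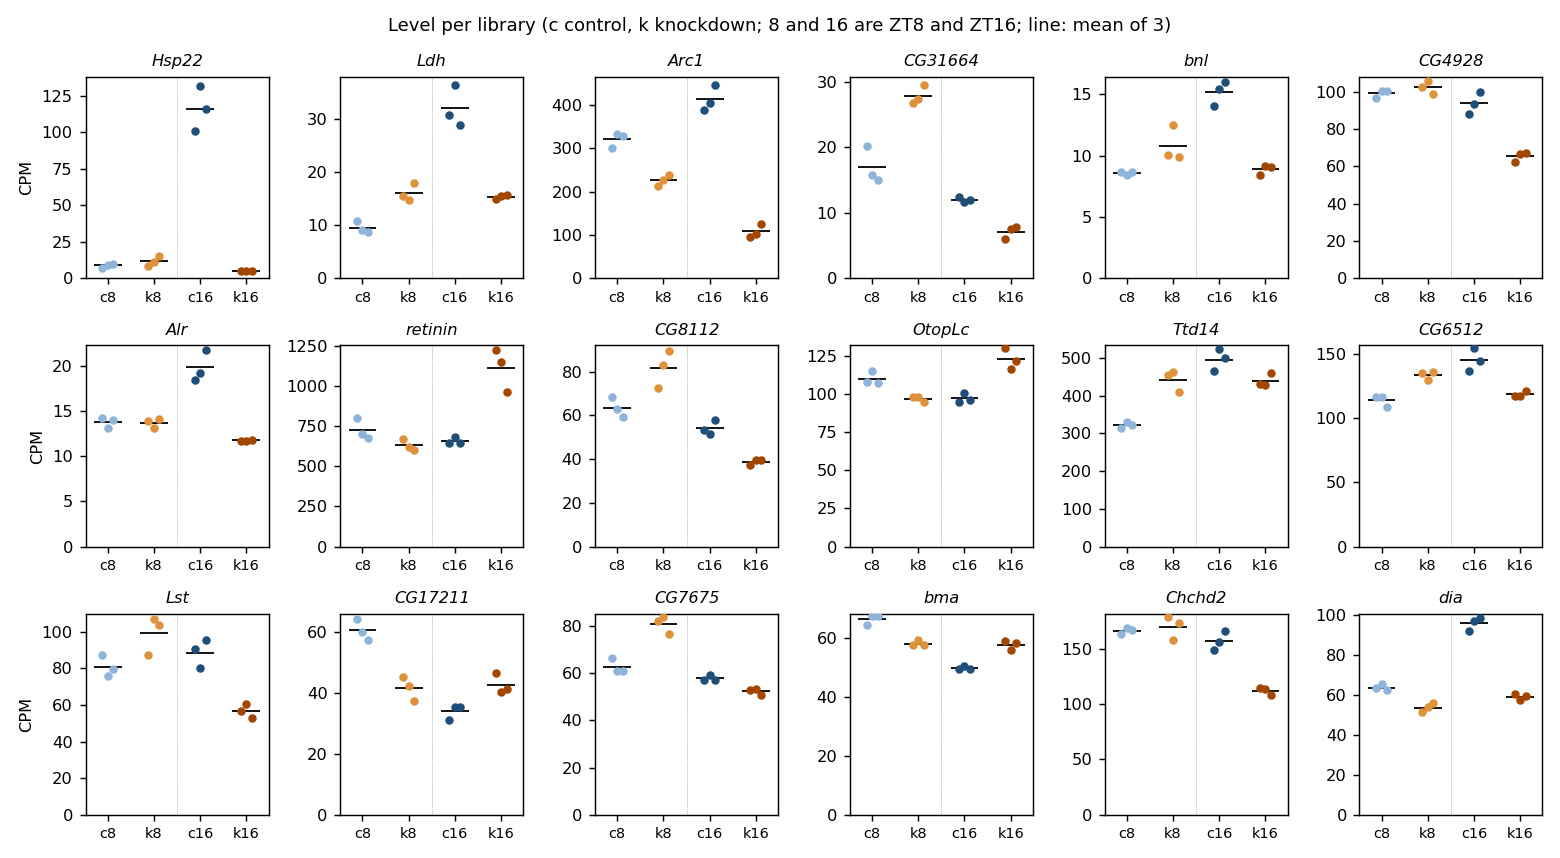
Level per library (y axis, CPM from 0) of the 18 genes called for the interaction with any 1 library left out, with control ZT8, knockdown ZT8, control ZT16 and knockdown ZT16 on the x axis. Each point is 1 library and each line the mean of 3. Control ZT16 alone is high for Hsp22, Ldh, bnl, Alr and dia, and knockdown ZT16 alone is high for retinin.

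Every other call named below ended when at least 1 library was left out. Among 57 called genes chosen by the naming rule, 46 lost the call in this way, and all 46 lost it without control ZT8 replicate 2. The number of the 12 fits that kept the call is given beside the main genes, and control ZT8 replicate 2 is among the libraries that decide it.

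Of 24 neuron markers, 9 were called with a positive interaction and 0 with a negative one (37.5% positive, against 2.67% of all genes). A positive estimate was seen in 23 of the 24, beside 4719 of all 10717 genes. The median was 0.33, beside -0.03 for all genes tested. Snap25, a SNARE protein of synaptic vesicle fusion, was at 290.2, 315 and 338 CPM for control and 266, 285 and 274 for knockdown at ZT8, then 285, 316 and 324 for control and 423, 389 and 392 for knockdown at ZT16 (chromosome 3L, 24074180 to 24299205). Knockdown was below control in every library at ZT8 and above it in every library at ZT16 (interaction 0.57 ± 0.093, adjusted p = 0.0158, kept in 9 of 12 fits). Syt1, the calcium sensor of vesicle release, was at 1141, 1141 and 1229 CPM for control and 995, 1055 and 917 for knockdown at ZT8, then 939, 1012 and 1012 for control and 1220.4, 1129 and 1161 for knockdown at ZT16, in the same order (interaction 0.49 ± 0.090, adjusted p = 0.0226, kept in 7 of 12). The SNARE gene Syx1A had 0.42 ± 0.079 (adjusted p = 0.0234, kept in 6 of 12), and its exons overlap those of eIF4EHP.

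The other called neuron markers were brp, a scaffold of the active zone (0.37 ± 0.076, adjusted p = 0.0303), the sodium channel para (0.36 ± 0.079, 0.0345), the GABA receptor Rdl (0.35 ± 0.089, 0.0497), the acetylcholine genes ChAT (0.32 ± 0.080, 0.0476) and VAChT (0.38 ± 0.091, 0.0455), and Rab3 of synaptic vesicles (0.33 ± 0.084, 0.0491). They kept the call in 2 to 5 of the 12 fits. Without control ZT16 replicate 1, 4 of the 24 were called positive, where 1.3% of all genes were, and the median was 0.28. The 4 were Snap25, Syt1, Syx1A and brp. The summed level of the neuron list was 10453 to 11265 CPM at ZT8 and 8751 to 9596 CPM at ZT16 for control, and 9674 to 10546 CPM at ZT8 and 9996 to 10896 CPM at ZT16 for knockdown. At ZT16 all knockdown libraries lay above all control libraries, and at ZT8 the groups overlapped.

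Of 13 glia markers, 3 were called positive and 0 negative (23.1% positive, against 2.67% of all genes), with a median of 0.13. Mdr65, an efflux transporter of the blood-brain barrier, was at 76.9, 91.2 and 89.4 CPM for control and 79.5, 74.1 and 75.8 for knockdown at ZT8, then 91.2, 87.4 and 88.5 for control and 121, 111 and 116 for knockdown at ZT16. The ZT16 groups did not overlap and the ZT8 groups did (interaction 0.54 ± 0.087, adjusted p = 0.0156, kept in 8 of 12 fits). The sodium pump subunit nrv2 had 0.49 ± 0.094 (adjusted p = 0.0253, kept in 7 of 12), and the GABA transporter Gat had 0.55 ± 0.14 (adjusted p = 0.0499, and 0.0884 without control ZT16 replicate 1). The pan-glial transcription factor repo had 0.07 ± 0.11 (adjusted p = 0.771).

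Pdf encodes the peptide transmitter of the ventral clock neurons. Its level was 56.6, 52.9 and 50.7 CPM for control and 36.4, 37.8 and 41.3 for knockdown at ZT8, then 49.8, 54.0 and 52.5 for control and 50.8, 49.7 and 52.7 for knockdown at ZT16 (chromosome 3R, 26455462 to 26456141). The 3 knockdown ZT8 libraries lay below all 9 others, whose groups overlapped. The knockdown effect was -0.47 ± 0.060 at ZT8, where it passed the test, and -0.03 ± 0.060 at ZT16, where it did not, and the interaction was 0.44 ± 0.085 (adjusted p = 0.0239, kept in 6 of 12 fits, at most 0.0837). Pdf was the only one called of 12 genes for clock neuron peptides and output (8.33% positive, against 2.67% of all genes). The output gene to, takeout, had an interaction of -0.12 ± 0.31 (adjusted p = 0.86), and the sodium leak channel na had 0.36 ± 0.092 (adjusted p = 0.0506).

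Genes for cytoplasmic ribosomal proteins and for the proteasome had estimates on the other side of 0. Of 80 ribosomal protein genes, 4 were called negative and 0 positive. These 5.00% compare with 1.51% of all genes called negative and 4.18% called at all. Positive estimates numbered 0 of 80, beside 4719 of all 10717 genes, and the median was -0.19. RpS25, of the small subunit, was at 717, 712 and 728 CPM for control and 789, 796 and 808 for knockdown at ZT8, then 708, 684 and 699 for control and 630.1, 653 and 599 for knockdown at ZT16. Every knockdown library was above control at ZT8, and all were below it at ZT16 (interaction -0.30 ± 0.062, adjusted p = 0.0302, kept in 5 of 12 fits). RpL22, of the large subunit, had -0.35 ± 0.081 (adjusted p = 0.0404, kept in 3 of 12), and RpL17 and RpS16 had -0.23 and -0.31 (adjusted p = 0.0484 and 0.0498). Without control ZT16 replicate 1, 2 of the 80 were called negative, RpS25 and RpL22, where 1.65% of all genes were.

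Of 32 proteasome genes, 3 were called negative and 0 positive (9.38% negative, against 1.51% of all genes). Positive estimates numbered 0 of 32, beside 4719 of all 10717 genes, and the median was -0.24. Prosbeta2, a subunit of the catalytic core, was at 56.0, 50.8 and 51.0 CPM for control and 58.2, 54.5 and 61.2 for knockdown at ZT8, then 60.9, 59.6 and 60.0 for control and 50.5, 53.2 and 50.8 for knockdown at ZT16 (interaction -0.36 ± 0.076, adjusted p = 0.0326, kept in 6 of 12 fits). Its groups did not overlap at ZT16 and overlapped at ZT8, and its exons overlap those of Reck on the opposite strand. Prosalpha3 and Prosbeta3, of the same core, had -0.34 and -0.44 (adjusted p = 0.0478 and 0.0345). The signs of the medians of the neuron, glia, ribosomal and proteasome lists were the same with RLE and upper quartile factors, on TPM and without rRNA genes, and on TPM 24 of 24 neuron markers, 2 of 80 ribosomal and 1 of 32 proteasome genes had a positive estimate.

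**Figure D4:**
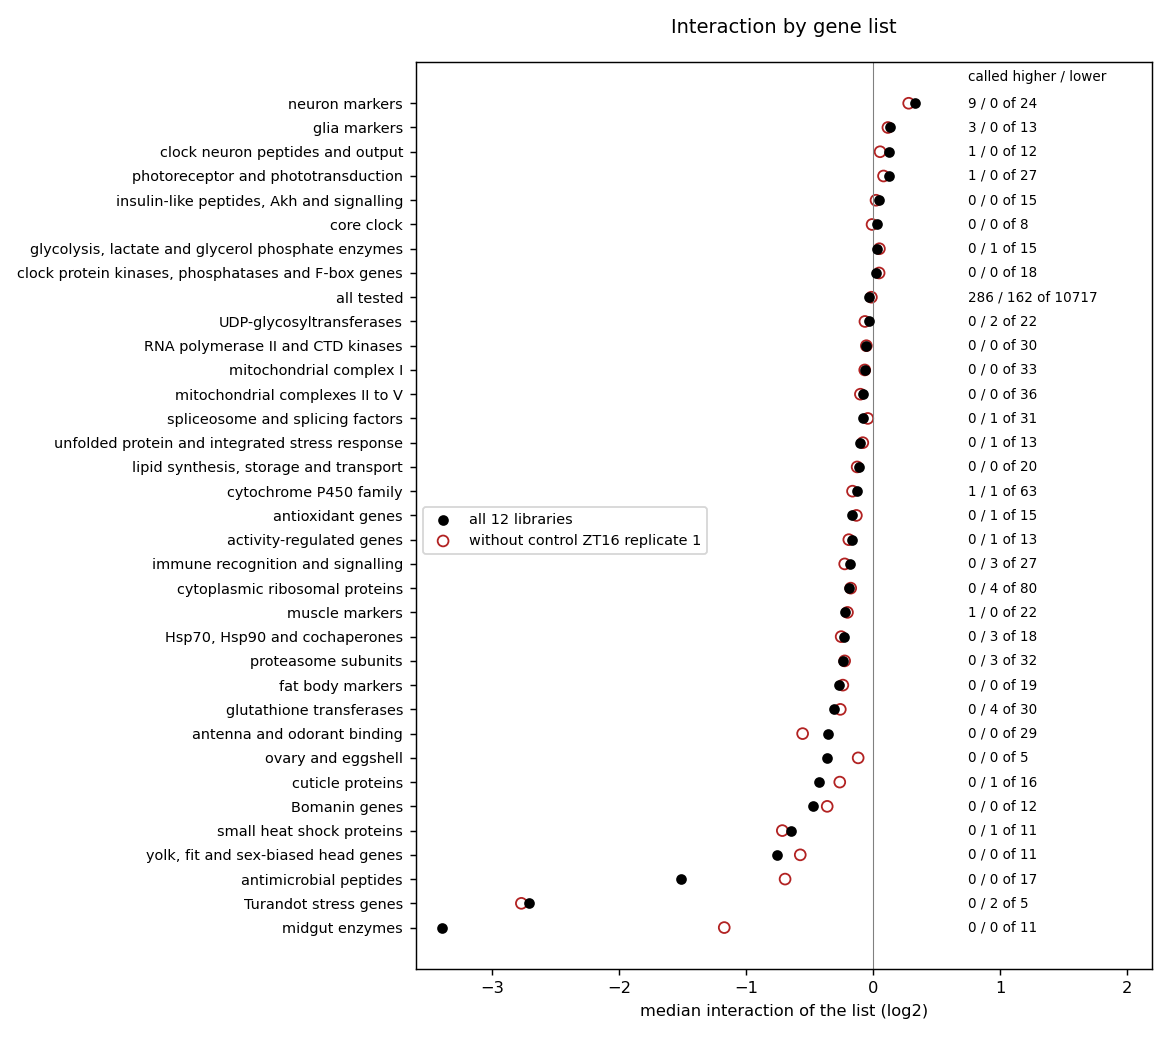
Median interaction (x axis, log2) of each list of genes (y axis), with all 12 libraries (black) and without control ZT16 replicate 1 (red rings). The numbers on the right are the genes called positive and negative with all libraries, of those tested. Neuron markers have the highest median (0.33) and midgut enzymes the lowest, which moves from -3.40 to -1.17 without that library.

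Transcript length moved with the sign of the interaction. Genes were divided into quintiles by their longest deposited transcript. In the quintile of longest transcripts, from 3869 bases, 164 genes were called positive and 21 negative, and in the shortest quintile, up to 1111 bases, 20 were called positive and 42 negative. Median interactions were -0.10, -0.07, -0.06, -0.004 and 0.05 from the shortest to the longest quintile. On TPM they rose in the same order, at -0.03, 0.005, 0.03, 0.07 and 0.13. Spearman's rho across the 10717 genes was 0.21 on counts (0.18 without control ZT16 replicate 1), where genes share the libraries and their depth. Among neuron markers, 16 of 24 were in the longest quintile (median length 6485 bases), and among ribosomal protein genes 59 of 80 were in the shortest (882 bases).

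The balance of long over short transcripts in a library was taken as the median log2 deviation from each gene's mean, longest minus shortest quintile. It was 0.04, 0.16 and 0.11 in control ZT8, -0.04, 0.003 and -0.06 in knockdown ZT8, -0.08, -0.0008 and -0.04 in control ZT16, and 0.006, -0.08 and 0.003 in knockdown ZT16. All 3 control ZT8 libraries lay above all 9 others. The part of this balance in the calls of long neuronal and short ribosomal and proteasome genes was not tested. The 18 genes that kept the call with any library left out were spread over all quintiles, with 1, 3, 6, 3 and 5 from the shortest to the longest.

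**Figure D5:**
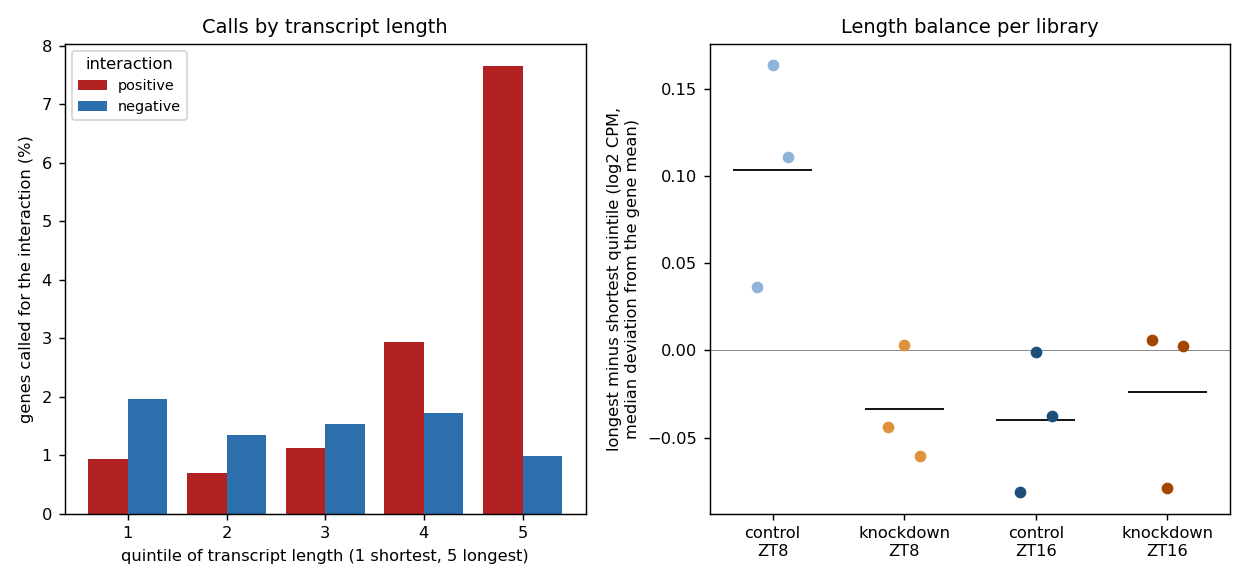
Left, genes called with a positive (red) or negative (blue) interaction in percent of the genes in each quintile of transcript length (x axis, 1 shortest to 5 longest). Right, long minus short balance per library (y axis, log2), with 1 point per library and a line at the mean of 3. Positive calls are most frequent in the longest quintile (164 genes), and the 3 control ZT8 libraries have the highest balance.

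Chaperones of the Hsp70 and Hsp90 families and their cochaperones counted 3 negative and 0 positive calls of 18 tested (16.7% negative, against 1.51% of all genes), with a median of -0.23. None of the 3 calls was kept in more than 2 of the 12 fits. Hsc70-1 was at 27.7, 29.9 and 28.0 CPM for control and 81.9, 90.8 and 58.1 for knockdown at ZT8, then 43.1, 56.2 and 60.3 for control and 47.3, 62.8 and 73.2 for knockdown at ZT16 (chromosome 3L, 13974061 to 13977761). The groups overlapped at ZT16 and not at ZT8, where knockdown was higher by 1.43 ± 0.20, and the interaction was -1.23 ± 0.28 (adjusted p = 0.0428, kept in 2 of 12 fits). Hsc70-2 was at or below 0.648 CPM in all control libraries and at 13.6 CPM or more in all knockdown libraries, higher by 5.84 ± 0.18 at ZT8 and 4.74 ± 0.17 at ZT16 (interaction -1.11 ± 0.27, adjusted p = 0.0473, kept in 1 of 12). The mitochondrial chaperone Hsc70-5 had -0.32 ± 0.076 (adjusted p = 0.0424, kept in 2 of 12). The heat shock factor gene Hsf had -0.06 ± 0.062 (adjusted p = 0.646) and the major cytosolic chaperone Hsc70-4 had -0.01 ± 0.097 (adjusted p = 0.956).

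Regulators of stress responses were called singly. PEK, the kinase that slows translation in endoplasmic reticulum stress, was at 76.4, 71.5 and 71.6 CPM for control and 69.2, 72.8 and 63.4 for knockdown at ZT8, then 83.9, 90.2 and 85.4 for control and 61.3, 61.9 and 65.0 for knockdown at ZT16 (interaction -0.37 ± 0.079, adjusted p = 0.0342, kept in 3 of 12 fits). It was lower in all knockdown libraries than in all control libraries at ZT16, and its ZT8 groups overlapped. PEK was the only one called of 13 tested genes of the unfolded protein and integrated stress response (7.69% negative, against 1.51% of all genes). The antioxidant regulator cnc, the fly Nrf2, had -0.32 ± 0.067 (adjusted p = 0.0329, kept in 4 of 12). It was the only one called of 15 antioxidant genes (6.67% negative, against 1.51% of all genes). Its exons overlap those of CG46310 and Irk1 on the opposite strand.

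Glutathione transferases had 4 negative and 0 positive calls of 30 tested (13.3% negative, against 1.51% of all genes), with a median of -0.31. GstE6 was at 44.8, 38.8 and 40.9 CPM for control and 51.5, 51.3 and 50.9 for knockdown at ZT8, then 35.7, 34.8 and 35.5 for control and 33.9, 32.0 and 30.7 for knockdown at ZT16. Knockdown was above control in every library at ZT8 and below it in every library at ZT16 (interaction -0.44 ± 0.081, adjusted p = 0.023, kept in 6 of 12 fits). GstD2 had -1.49 ± 0.35 (adjusted p = 0.0418, kept in 3 of 12), while GstD1 and GstO3 had -0.40 and -0.32 and lost the call without control ZT16 replicate 1 (adjusted p = 0.0715 and 0.0542). Sister genes of this family are similar in sequence, so the authors' counting could divide reads between them.

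In the cytochrome P450 family, 1 of 63 was called positive and 1 negative (1.59% each, against 2.67% and 1.51% of all genes). Cyp6w1 was higher in knockdown at both times, by 1.95 ± 0.10 at ZT8 and 1.33 ± 0.10 at ZT16 (interaction -0.62 ± 0.14, adjusted p = 0.0387, kept in 3 of 12 fits). Cyp304a1 was at 2.71, 3.03 and 2.78 CPM for control and 0.857, 0.747 and 0.235 for knockdown at ZT8, then 1.12, 0.579 and 0.581 for control and 0.482, 1.10 and 1.54 for knockdown at ZT16. Control ZT8 alone was high (interaction 2.67 ± 0.67, adjusted p = 0.0484, kept in 2 of 12). Of 22 UDP-glycosyltransferases 2 were called negative (9.09%, against 1.51% of all genes). Ugt302C1 was at 37.2, 36.1 and 37.4 CPM for control and 77.1, 76.4 and 76.8 for knockdown at ZT8, then 27.4, 26.4 and 27.8 for control and 43.8, 44.9 and 43.7 for knockdown at ZT16, with knockdown above control in every library at both times and an interaction of -0.36 ± 0.056 (adjusted p = 0.0141, kept in 9 of 12). Ugt36E1 had -0.37 ± 0.087 (adjusted p = 0.0418, and 0.061 without control ZT16 replicate 1).

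Immune recognition and signalling genes had 3 negative and 0 positive calls of 27 (11.1% negative, against 1.51% of all genes). The thioester protein gene Tep4 was at 47.3, 41.9 and 38.2 CPM for control and 214, 199.8 and 227 for knockdown at ZT8, then 60.0, 42.6 and 45.3 for control and 161, 154 and 152 for knockdown at ZT16. Knockdown libraries all exceeded control at both times (interaction -0.67 ± 0.17, adjusted p = 0.0492, kept in 3 of 12 fits). The Toll pathway transcription factor dl had -0.41 ± 0.10 (adjusted p = 0.0475, kept in 2 of 12), and the Toll adaptor Myd88 had -0.32 ± 0.081 (adjusted p = 0.0498, and 0.0534 without control ZT16 replicate 1). None of the 17 antimicrobial peptide genes tested was called. The summed level of all 19 on the list was 1088 to 1289 CPM at ZT8 and 305 to 935 CPM at ZT16 for control, and 234 to 1135 CPM at ZT8 and 178 to 268 CPM at ZT16 for knockdown. Knockdown ZT8 replicate 3 and control ZT16 replicate 1 were the high libraries of their groups.

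Turandot genes, secreted stress proteins, had 2 negative calls of 5 tested (40% negative, against 1.51% of all genes) and a median of -2.71. TotM was at 13.5, 11.4 and 10.6 CPM for control and 145, 149.8 and 33.0 for knockdown at ZT8, then 20.5, 38.1 and 16.2 for control and 15.96, 9.45 and 11.9 for knockdown at ZT16. Knockdown ZT8 replicates 1 and 2 were high and replicate 3 was lower, and still above all control ZT8 libraries (interaction -4.21 ± 0.80, adjusted p = 0.0345, 0.0523 without control ZT16 replicate 1, kept in 2 of 12 fits). TotC was at 73.0, 67.3 and 70.8 CPM for control and 398, 456 and 107 for knockdown at ZT8, then 162, 212 and 154 for control and 125, 125 and 117 for knockdown at ZT16, with the same library low within its group (interaction -2.71 ± 0.61, adjusted p = 0.0485, 0.0821 without control ZT16 replicate 1). TotA had -1.93 ± 0.59 (adjusted p = 0.103). Fat body markers summed to 61354 CPM in knockdown ZT8 replicate 3 and to 20131 to 41803 CPM in the other 11 libraries. They share the yolk protein genes and fit with the list of yolk, fit and sex-biased head genes. That list summed to 47300 CPM in knockdown ZT8 replicate 3 and to 11830 to 29971 CPM in the other 11 libraries. The part of either list in the Turandot values was not tested.

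Further positive interactions at 5 CPM or more were led by genes outside these lists. CG13026 (chromosome 3L, 16724678 to 16726169) was at 1.79, 1.33 and 1.40 CPM for control and 3.21, 2.88 and 1.83 for knockdown at ZT8, then 3.32, 3.65 and 3.07 for control and 16.4, 15.8 and 12.9 for knockdown at ZT16. Knockdown was higher in every library at both times, and the interaction was 1.36 ± 0.28 (adjusted p = 0.0302, kept in 7 of 12 fits). bgm, a very long chain fatty acyl-CoA synthetase, was at 166, 139 and 132 CPM for control and 185, 165 and 146 for knockdown at ZT8, then 74.2, 65.8 and 56.7 for control and 161, 183 and 147 for knockdown at ZT16 (chromosome 2L, 14013004 to 14019328). Control ZT16 was below the other 3 groups, which overlapped (interaction 1.14 ± 0.18, adjusted p = 0.0181, kept in 9 of 12). Exons of CG13026 overlap those of CG13031 on the opposite strand.

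Cht6, a chitinase, was at 9.54, 12.0 and 10.4 CPM for control and 9.35, 9.69 and 8.24 for knockdown at ZT8, then 10.4, 11.1 and 10.2 for control and 18.6, 18.2 and 14.697 for knockdown at ZT16 (interaction 0.92 ± 0.15, adjusted p = 0.0176, kept in 8 of 12 fits), with the 3 knockdown ZT16 libraries above all others. Its exons overlap those of asRNA:CR45185 on the opposite strand. The chitin-binding gene Gasp was at 50.5, 56.1 and 55.1 CPM for control and 45.6, 38.5 and 38.7 for knockdown at ZT8, then 31.8, 39.8 and 30.6 for control and 53.3, 48.7 and 41.5 for knockdown at ZT16 (interaction 0.89 ± 0.16, adjusted p = 0.0234, kept in 8 of 12), below control in every knockdown library at ZT8 and above it in every one at ZT16. Of 16 tested cuticle protein genes, 5 had a positive estimate, beside 4719 of all 10717 genes, and the median was -0.43. Cpr66D was the only one called (6.25% negative, against 1.51% of all genes), with -1.74 ± 0.38 (adjusted p = 0.0354, kept in 2 of 12). Act57B, an actin of muscle, had 0.65 ± 0.13 (adjusted p = 0.0258, kept in 7 of 12). It was the only one called of 22 muscle markers (4.55% positive, against 2.67% of all genes), whose median was -0.22.

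Other positive calls were CG17224 (0.79 ± 0.18, adjusted p = 0.0366), CG46244 (0.78 ± 0.15, 0.0254), the transporter gene SLC22A (0.77 ± 0.17, 0.037), asRNA:CR45683 (0.72 ± 0.13, 0.023), CG14153 (0.70 ± 0.12, 0.0202) and the tetraspanin gene Tsp5D (0.69 ± 0.12, 0.0209). Tsp5D was at 50.4, 47.7 and 50.4 CPM for control and 55.3, 46.8 and 52.7 for knockdown at ZT8, then 49.9, 57.0 and 48.5 for control and 96.9, 85.4 and 78.6 for knockdown at ZT16, so that only knockdown ZT16 stood above the rest. They kept the call in 3 to 8 of the 12 fits. Exons of CG46244, SLC22A, asRNA:CR45683 and Tsp5D overlap those of Lar, PolH, Tehao and CG5928.

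Among genes at 5 CPM or more that were also called without control ZT16 replicate 1, the largest negative interaction after Hsp22 was that of CG7910. It was at 2.68, 4.06 and 3.08 CPM for control and 3.05, 3.49 and 5.06 for knockdown at ZT8, then 14.68, 4.53 and 5.43 for control and 0.925, 1.13 and 1.28 for knockdown at ZT16 (chromosome 3R, 8087252 to 8089526). Control ZT16 replicate 1 was the highest library, and without it the interaction was -2.39 (adjusted p = 0.00835), against -3.11 ± 0.61 (adjusted p = 0.0302) with it. CG5966 was at 43.8, 27.7 and 29.5 CPM for control and 118, 76.5 and 59.1 for knockdown at ZT8, then 60.0, 49.99 and 59.8 for control and 31.8, 30.8 and 30.4 for knockdown at ZT16 (chromosome X, 5988791 to 5992640). Knockdown was above control in every library at ZT8 and below it in every library at ZT16 (interaction -2.20 ± 0.35, adjusted p = 0.0209, kept in 7 of 12 fits). CG7695, CG14502 and CG5883 had -2.14 ± 0.46, -1.63 ± 0.40 and -1.49 ± 0.28 (adjusted p = 0.0417, 0.049 and 0.0234), and exons of CG14502 overlap those of sbb.

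Antp, a Hox gene of the thorax, was called in heads at a low level, at 3.04, 3.16 and 3.16 CPM for control and 7.63, 8.78 and 5.69 for knockdown at ZT8, then 3.83, 4.74 and 5.64 for control and 3.86, 4.57 and 5.77 for knockdown at ZT16 (chromosome 3R, 6896253 to 6999228). Every knockdown library was above control at ZT8, and the ZT16 groups overlapped (interaction -1.24 ± 0.27, adjusted p = 0.0354, kept in 3 of 12 fits). Its exons overlap those of CG46458 on the same strand. Sid, a stress-induced DNase, was at 6.67, 4.46 and 4.23 CPM for control and 7.31, 8.50 and 8.87 for knockdown at ZT8, then 7.63, 7.43 and 7.003 for control and 4.62, 5.03 and 5.41 for knockdown at ZT16 (interaction -1.23 ± 0.22, adjusted p = 0.0209, kept in 8 of 12). Its knockdown libraries were above control at ZT8 and below it at ZT16, with no overlap.

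Genes that lost the call without control ZT16 replicate 1 included, beside TotM and TotC, the receptor tyrosine kinase gene Alk. It was at 269, 206 and 208 CPM for control and 289, 323 and 219 for knockdown at ZT8, then 359.7, 288 and 505 for control and 202, 187 and 203 for knockdown at ZT16. Control was above knockdown in every library at ZT16, and the ZT8 groups overlapped (interaction -1.25 ± 0.29, adjusted p = 0.0485, and 0.0812 without that library). CG17264, CG40298 and CG43850 had 1.16 ± 0.28, 1.08 ± 0.26 and 0.77 ± 0.17 with all libraries, and adjusted p of 0.0781, 0.0693 and 0.0517 without it.

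The list of 29 antennal genes held mostly odorant binding proteins, which carry odorants, and the coreceptor gene Orco. None was called with all libraries, and 5 of the 29 were called negative without control ZT16 replicate 1, where 1.65% of all genes were. They were Obp19a, Obp19b, Obp59a, Obp83a and Os-C. Obp83a was at 0.190, 0.401 and 0.175 CPM for control and 3.91, 9.14 and 5.19 for knockdown at ZT8, then 0.203, 6.99 and 6.63 for control and 2.01, 6.24 and 6.69 for knockdown at ZT16. Control ZT16 replicate 1 and all of control ZT8 were at or below 0.401 CPM, and the other 8 libraries were at 2.01 CPM or more. Os-C was at 0.0542, 0.0501 and 0 CPM for control and 2.09, 5.56 and 3.81 for knockdown at ZT8, then 0.0678, 3.95 and 4.00 for control and 0.724, 5.03 and 3.94 for knockdown at ZT16, with the same 4 libraries lowest. The interaction of Obp83a was -4.43 ± 1.40 (adjusted p = 0.11) with all libraries and -4.98 (adjusted p = 0.0223) without control ZT16 replicate 1. The olfactory coreceptor gene Orco was at 3.96, 6.71 and 5.18 CPM for control and 3.27, 6.84 and 6.42 for knockdown at ZT8, then 4.10, 4.33 and 4.95 for control and 5.39, 4.65 and 4.20 for knockdown at ZT16, with overlap of all groups (interaction 0.03 ± 0.37, adjusted p = 0.973). Genes of the midgut and of ovary and eggshell, which a head sample should lack, gave 0 calls of 11 and of 5 tested.

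Several lists gave no call with all libraries. They were 12 Bomanin peptide genes (median -0.47), 20 genes of lipid synthesis, storage and transport (-0.11), 15 genes of insulin-like peptides, Akh and their signalling (0.05), 19 fat body markers (-0.27), 11 yolk, fit and sex-biased head genes (-0.76) and 30 genes of RNA polymerase II and its kinases (-0.06). Of 31 spliceosome genes, SmE, a core snRNP protein, was the only one called (-0.46 ± 0.10, adjusted p = 0.0345, and 0.0534 without control ZT16 replicate 1). This call made 3.23% negative, against 1.51% of all genes, with a list median of -0.08. The medians of the spliceosome, RNA polymerase II and UDP-glycosyltransferase lists were positive on TPM.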

How the data were processed

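Per the submitters' processing notes, reads were aligned to dm6 with STAR 2.6.0c and quantified with RSEM 1.3.1. Libraries were TruSeq Stranded mRNA from QIAzol RNA, per the labels. The authors deposited expected counts, already whole numbers, for 35536 transcripts, and beside them TPM and FPKM (not used). The authors' transcript length is a score in bases, used as deposited to rank genes into quintiles and to give the lengths of quintiles and lists. The control ZT16 columns lack a digit that the library names carry and were matched by time and number.

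Counts were summed by symbol to 17816 genes, filtered with filterByExpr (minimum count 10) and scaled by TMM. One edgeR 4.0.16 quasi-likelihood model (R 4.3.3) of 4 group means, with 8 residual degrees of freedom, gave every contrast, and p-values were adjusted by Benjamini-Hochberg. It was tested on simulated data. TPM were tested with limma 3.58.1 on log2(TPM + 0.1), and DESeq2 1.42.0 was an alternative. Of 855 genes on 35 lists, 852 were matched. Positions come from the transcript loci deposited by the authors, and exon overlaps from an Ensembl annotation.

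Members, lists and tests were chosen with earlier results of these data known. Named genes were CG5808 and the clock genes, the 12 largest interactions each way at 5 CPM or more that were also called without control ZT16 replicate 1, up to 3 called members a list, up to 6 genes with opposite effects of each kind, and 3 examples each way that lost the call without that library.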

Additional observations from a re-analysis of the deposited data

Results flagged for a closer look

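The interaction is itself the test that the knockdown effect differed between ZT8 and ZT16, and 448 genes passed it at an adjusted p under 0.05 in edgeR's quasi-likelihood test. Of the genes chosen by the naming rule, 57 passed, and their values are the difference of the 2 effects in log2, positive where knockdown stood higher relative to control at ZT16.

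Genes that kept the call with any 1 library left out had values of -4.89 for Hsp22, -1.81 for Ldh, -1.47 for CG31664, -1.42 for Arc1, -1.10 for bnl, -0.84 for CG8112, -0.52 for CG6512, -0.75 for Alr, 0.96 for retinin, 0.87 for CG17211 and 0.52 for OtopLc. Neuron, glia and clock neuron peptide genes had values of 0.57 for Snap25, 0.49 for Syt1, 0.42 for Syx1A, 0.54 for Mdr65, 0.49 for nrv2 and 0.44 for Pdf. Stress, immune and detoxification genes had values of -1.23 for Hsc70-1, -1.11 for Hsc70-2, -0.32 for Hsc70-5, -0.37 for PEK, -0.32 for cnc, -0.41 for dl, -0.67 for Tep4, -1.23 for Sid, -0.62 for Cyp6w1, 2.67 for Cyp304a1, -0.44 for GstE6, -1.49 for GstD2 and -0.36 for Ugt302C1. Ribosomal, proteasome, muscle and cuticle genes had values of -0.30 for RpS25, -0.35 for RpL22, -0.36 for Prosbeta2, 0.65 for Act57B, -1.74 for Cpr66D, 0.92 for Cht6 and 0.89 for Gasp. Other genes called with all libraries and without control ZT16 replicate 1 had values of 1.36 for CG13026, 1.14 for bgm, 0.79 for CG17224, 0.78 for CG46244, 0.77 for SLC22A, 0.72 for asRNA:CR45683, 0.70 for CG14153, 0.69 for Tsp5D, -3.11 for CG7910, -2.20 for CG5966, -2.14 for CG7695, -1.63 for CG14502, -1.49 for CG5883 and -1.24 for Antp. Genes that lost the call without control ZT16 replicate 1 had values of -4.21 for TotM, -2.71 for TotC, -1.25 for Alk, 1.16 for CG17264, 1.08 for CG40298 and 0.77 for CG43850. No search gene by gene for single libraries far from the others was made within a group of 3, since that search needs 4. Libraries that stood apart by marker sums or by sampling noise over all genes are described above. For all 57 genes, the part of depth, which differed between the times, was not tested.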

How the results depend on the processing

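Against 448 calls, 63.8% of them positive, RLE factors with 406, voom with 365, no rRNA genes with 381, a stricter filter with 447 and a fit without robust estimation with 436 stayed within 1.5 times. Upper quartile factors gave 276 (150 positive, 126 negative, against 286 and 162), no filter 240, DESeq2 918 and TPM 26 (38.5% positive). Leaving out 1 library gave 19 to 1107, with 26.3% to 78.1% positive. Leaving out control ZT16 replicate 1 and knockdown ZT8 replicate 3 together, chosen after seeing the data, gave 531 (187 positive, 344 negative), of which 251 were among the 448. The cause of these changes was not tested. RLE factors called 276 positive and 130 negative.

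The replicate numbers, taken from the sample titles, did not pair all 4 groups. At ZT8 most library names carry another number, so equal numbers need not mean a shared origin. Correlations of same-numbered deviations were -0.17 to 0.27. All 3 pairs were over 0.1 only between the knockdown groups (0.106, 0.109 and 0.127, each library highest with its own number). That met the criterion for pairing, at small correlations. Knockdown ZT16 libraries were also highest with their own number in control ZT16 (3 of 3), and 2 of 3 in reverse. With the replicate number as a block the interaction gave 137 calls (76 positive, 61 negative). With a block within each time it gave 170 (64 positive, 106 negative). With the block within time, the time effect is read at the level of replicate 1 alone, which includes control ZT16 replicate 1. Its 919 calls in control and 1196 in knockdown are therefore no like comparison with the 2542 and 2488 without a block. The plain replicate block gave 2280 in knockdown.

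Leaving out 1 library gave 673 to 2735 calls for the knockdown effect at ZT8 (1671 with all), 1309 to 2759 at ZT16 (2379), 1532 to 2810 for time in control (2542) and 1572 to 2871 in knockdown (2488). Of 66 named genes, 3 reversed, none called in any fit. With both libraries left out, cyc was -0.064, Pdp1 -0.014 and cry -0.027. With 1 left out, cyc was -0.035 to 0.099, Pdp1 -0.028 to 0.10 and cry -0.080 to 0.10. Of 57 called, 11 kept the call in the fit without control ZT8 replicate 2, 13 on TPM and 32 with the replicate block. The promoter motif description was not run.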

Other observations

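Genes on chromosome 4, singled out after the values were seen, were called more often than genes elsewhere. Of 97 tested, 15 were called for the interaction, all 15 positive (15.5%), against 433 of 10620 on the other chromosomes (4.08%). The median interaction was 0.15 against -0.03 (0.23 against 0.05 on TPM). Estimates were positive for 77 of 97 (79.4%), against 4642 of 10620 elsewhere (43.7%). Among genes in the longest of 5 classes of transcript length, 8 of 43 on chromosome 4 were called (18.6%) and 177 of 2101 elsewhere (8.42%). Without control ZT16 replicate 1, 6 of the 97 were called (6.19%), and 313 of the 10620 elsewhere (2.95%).

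Synaptic genes were among the 15. Cadps, which primes dense core vesicles, had an interaction of 0.42 (adjusted p = 0.0141), the kinase gene CaMKII had 0.53 (adjusted p = 0.0234), the synaptotagmin gene Syt7 had 0.49 (adjusted p = 0.0302), and mGluR, a metabotropic glutamate receptor, had 0.48 (adjusted p = 0.0345, and 0.0523 without control ZT16 replicate 1). The median deviation of chromosome 4 genes from each gene's mean was 0.10, 0.09 and 0.14 in the knockdown ZT16 libraries, and -0.11 to 0.04 in the other 9. The 3 knockdown ZT16 libraries were the highest, and no cause was tested.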
